A study of Mus musculus with 12 samples.

Results

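The Arp2/3 complex is the actin nucleator that starts a new filament as a branch on the side of an existing one. Actr2 and Actr3 encode Arp2 and Arp3, the actin-like subunits that form the first units of the daughter filament. Arpc2 and Arpc4 form the structural core that holds the complex on the mother filament. Arpc1a and Arpc1b encode alternative versions of the WD-repeat subunit ARPC1, Arpc5 and Arpc5l encode alternative versions of ARPC5, and Arpc3 encodes the subunit that sits against Arp3. In macrophages, branched actin made by this complex drives membrane ruffles, phagocytic cups and podosomes, and in blood cells ARPC1B is the main version of ARPC1.

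These 9 genes, of 38215 in the gene count table, were followed by symbol at the gene level and through all of their exon bins, which are the non-overlapping pieces into which the annotated exons of a gene are divided. The genes have 182 of the 354841 bins counted, and this number includes the bins of Ttll3, because the counting joined the overlapping genes Arpc4 and Ttll3 into a unit of 49 bins. The genes were picked because the use of Arpc1b bins 24 and 25 rose with SF3A1 siRNA. All values that set SF3A1 siRNA against control siRNA in these genes are therefore given as a description, without p-values, and nothing is read from the number of members past the threshold there, while the effect of LPS was tested.

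RNA was sequenced from RAW264.7 cells, a mouse macrophage line of BALB/c origin, transfected with an siRNA against SF3A1 or with a non-targeting control siRNA. SF3A1 is a subunit of SF3a, the part of the U2 snRNP that takes part in recognition of the branch site during splicing. Both kinds of culture were left unstimulated or given LPS (lipopolysaccharide, the bacterial ligand of TLR4) at 20 ng/ml for 4 hours, which makes 4 groups of 3 replicates. All groups come from a single line grown in culture, so the replicates measure the spread between treated cultures of that line. Gene counts summed to between 12746019 and 41091887 per library. Exon bin counts, summed over the 11 libraries used for them, lay between 17269833 and 59095475 (the bin counts of replicate 3 of the stimulated control siRNA group were not analysed here).

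The labels were checked against the targeted gene and against lineage markers. Sf3a1 stood at 173, 216 and 185 CPM (counts scaled to a library of 1000000 counts) with control siRNA and at 27.1, 27.5 and 32.1 CPM with SF3A1 siRNA, both without LPS. With LPS it stood at 150.0, 194 and 157 CPM with control siRNA and at 30.3, 26.7 and 45.1 CPM with SF3A1 siRNA. Its log2 fold change was -2.73 ± 0.20 (SE) without LPS and -2.30 ± 0.20 with LPS, which leaves 15.1% and 20.4% of the control mean (adjusted p = 1.14e-05 and 1.47e-05, edgeR's quasi-likelihood test). All 8 macrophage markers examined were abundant, led by Lyz2 (lysozyme) at a mean of 5430 to 7527 CPM across the groups, and Csf1r, the receptor for the growth factor M-CSF, lay between 1425 and 3357 CPM. Summed over each list, 4 T cell markers reached at most 0.193 CPM in any library, 3 B cell markers 0.363 CPM, and 4 fibroblast and epithelial markers 0.263 CPM. Replicate 1 was the most deeply sequenced library of each group, and Arpc1a, Arpc2, Arpc4, Arpc5 and Arpc5l each had their lowest level in replicate 1 in all 4 groups.

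Arpc1b (ENSMUSG00000029622) lies on the plus strand at chr5:145114215-145130705 (mm10), and its main transcript has 10 exons. Bins 24, 25 and 26 of Arpc1b together cover all of intron 8, chr5:145126933-145127635, which is 703 bases long and separates exon 8, whose last bin is bin 23, from exon 9, which is bin 27. The bins exist because the transcript Arpc1b-203 runs from exon 8 into the intron (bins 24 and 25) and the transcript Arpc1b-210 begins within the intron and runs into exon 9 (bins 25 and 26). No transcript of the annotation used here holds the intron from end to end. The splice sites of intron 8 are shown because this is where the counts changed, and those of intron 4 (chr5:145123792-145124586, 795 bases) because bins 12 to 16 cover that intron of the same gene completely too. Each 5′ sequence holds 10 exon and 30 intron bases (GT of the intron in capitals), and each 3′ sequence holds 60 intron and 10 exon bases, with the AG and the polypyrimidine tract window, positions -17 to -5 from the exon, in capitals.
Arpc1b intron 8, 5′ splice site: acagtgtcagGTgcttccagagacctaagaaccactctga
Arpc1b intron 8, 3′ splice site: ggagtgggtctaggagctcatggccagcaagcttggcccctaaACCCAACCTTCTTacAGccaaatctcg
Arpc1b intron 4, 5′ splice site: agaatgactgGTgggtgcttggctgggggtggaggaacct
Arpc1b intron 4, 3′ splice site: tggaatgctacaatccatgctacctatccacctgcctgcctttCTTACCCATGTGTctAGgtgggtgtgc

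Both introns begin with GT and end with AG. The tract window of intron 8 held 30.8% T and 46.2% C, and that of intron 4 held 38.5% T and 30.8% C. The reading frame was followed from the reference sequence into each intron. The annotated coding sequence of the main Arpc1b transcript has 372 codons, of which 329 are complete before intron 8. Read through intron 8, the frame meets a TAG at codon 367, after 37 codons from the intron. Read through intron 4, which follows 130 complete codons, it meets a TGA at codon 176, after 45 codons from that intron.

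Bin 24 held little of the Arpc1b signal in control cells and several percent of it after SF3A1 siRNA. As a percent of all Arpc1b bin counts, bin 24 stood at 0.577, 0.306 and 0.482% with control siRNA without LPS and at 3.34, 3.50 and 3.48% with SF3A1 siRNA without LPS. With LPS it stood at 0.315 and 0.349% with control siRNA and at 4.66, 3.28 and 4.01% with SF3A1 siRNA. Each SF3A1 library lay above each control library, and the replicates of SF3A1 siRNA without LPS lay closer together than those with LPS. These shares rested on 84 to 495 counts in the control libraries and 534 to 2447 counts in the SF3A1 libraries.

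Bin 25, which is 108 bases long, followed bin 24. It stood at 0.234, 0.112 and 0.158% with control siRNA without LPS and at 1.28, 1.23 and 1.55% with SF3A1 siRNA without LPS. With LPS the values were 0.191 and 0.0955% with control siRNA and 2.16, 1.49 and 1.80% with SF3A1 siRNA. The libraries of the siRNA groups were again fully apart. The lowest control library, replicate 2 of control siRNA with LPS, rested on 23 counts. Bin 26, the 3′ part of the intron, stood at 0.729, 0.535 and 0.562% with control siRNA and at 3.12, 3.10 and 3.18% with SF3A1 siRNA, both without LPS. With LPS it stood at 0.575 and 0.461% with control siRNA and at 4.02, 3.68 and 3.64% with SF3A1 siRNA.

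In the fit over all bins, the use of bin 24 relative to the rest of Arpc1b was higher by 2.91 on the log2 scale with SF3A1 siRNA without LPS and by 3.60 with LPS. The values were 2.97 and 3.60 for bin 25, and 2.36 and 2.86 for bin 26. Bins 24 and 25 summed together were 7.68 times as high with SF3A1 siRNA without LPS and 12.2 times as high with LPS. Those are shares of the Arpc1b counts, and relative to all bin counts of the library the values were 5.23 and 8.01 times. Per 100 bases all 3 bins were higher with SF3A1 siRNA. Bins 24, 25 and 26 in this order held, without LPS, 0.157 ± 0.047, 0.156 ± 0.057 and 0.200 ± 0.034% with control siRNA and 1.19 ± 0.03, 1.25 ± 0.16 and 1.03 ± 0.01% with SF3A1 siRNA (SD, n = 3). The exon bins on both sides of the intron, on the same scale, held 6.65 ± 0.98% (bin 23) and 7.46 ± 0.19% (bin 27) with control siRNA and 6.63 ± 0.62% and 7.45 ± 0.59% with SF3A1 siRNA. With LPS the intron bins held 0.114 ± 0.008, 0.132 ± 0.062 and 0.170 ± 0.026% with control siRNA (n = 2) and 1.37 ± 0.24, 1.68 ± 0.31 and 1.24 ± 0.07% with SF3A1 siRNA (n = 3). After SF3A1 siRNA without LPS, bin 26 held less per base than bin 24 by more than their SDs. With LPS, bin 23 held 6.60 ± 0.96% and 6.59 ± 0.60% with control and SF3A1 siRNA, while bin 27 held 7.83 ± 0.09% and 7.002 ± 0.295%, lower in each SF3A1 library than in both control libraries.

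**Figure D1:**
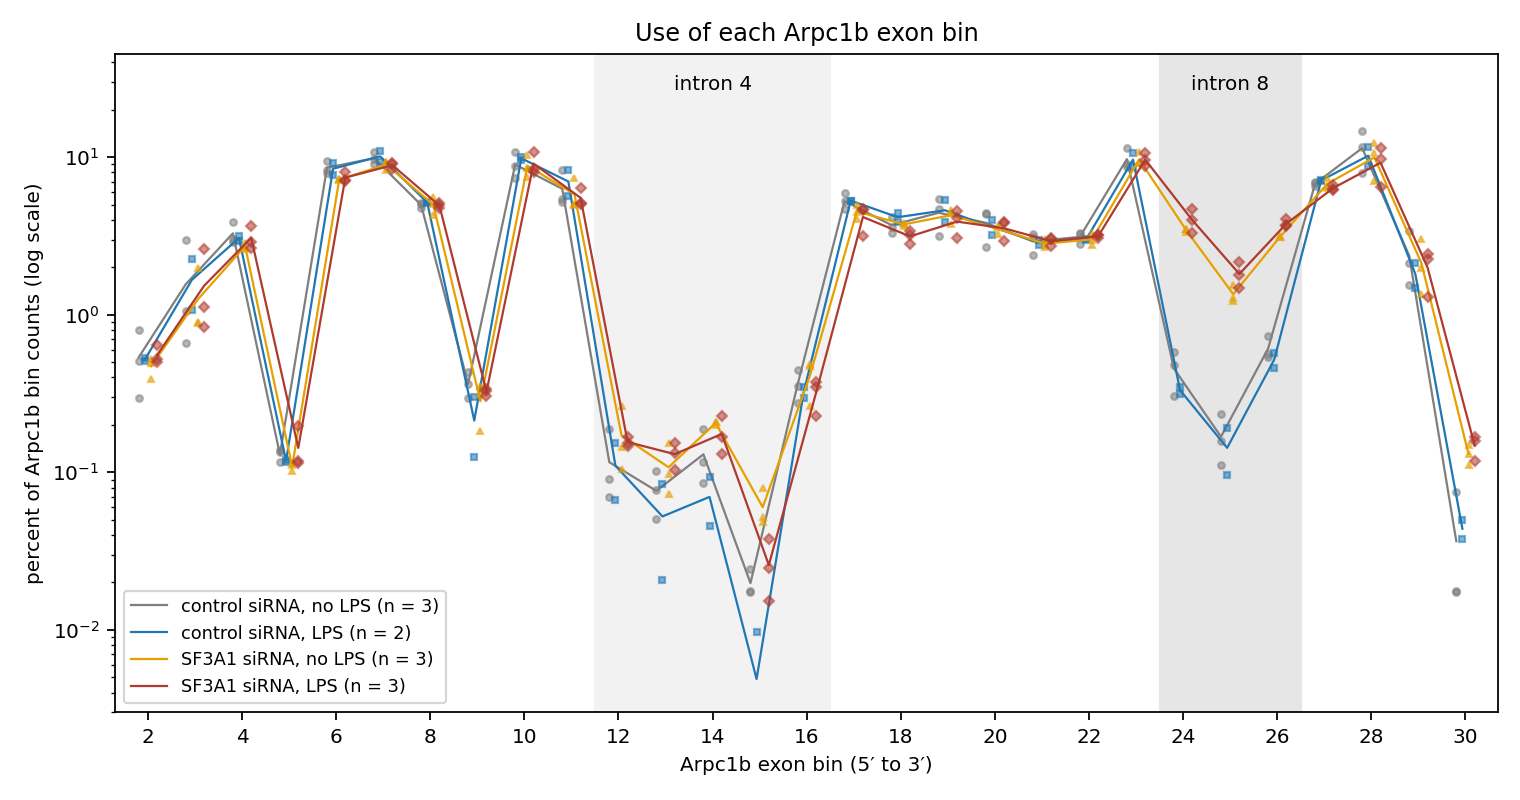
The percent of Arpc1b bin counts in each exon bin from 5′ to 3′ (log axis); each point is a library (libraries at 0 are not drawn), lines join group means, bin 1 is left out, and shading marks the bins of introns 4 and 8. All SF3A1 siRNA libraries lie above all control siRNA libraries at bins 24 to 26 and at bin 30, while they overlap at exon bin 23 and, without LPS, at exon bin 27. Compared without LPS only, 6 of the 29 tested bins were higher and 3 lower in every SF3A1 library, and with LPS only, 9 and 4.

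The members were chosen on these comparisons, so the number of their bins past the threshold only describes that choice. Of the 137 member bins in the fit, 4 lay past an adjusted p of 0.1 with SF3A1 siRNA without LPS, all of them higher, beside 0.497% of all 153624 bins called higher. With LPS it was 3, all higher, beside 0.381% of all bins. The bins were Arpc1b 24, 25 and 26 in both comparisons and Arpc1b 30 without LPS. Bin 30 (259 bases, chr5:145130447-145130705) is the last exon of the transcript Arpc1b-208 and lies outside the main transcript. It stood at 0.0175, 0.0747 and 0.0176% of Arpc1b counts with control siRNA and 0.112, 0.150 and 0.131% with SF3A1 siRNA without LPS, and stood at 0.0379 and 0.0498% with control siRNA and 0.118, 0.168 and 0.158% with SF3A1 siRNA with LPS. It rested on 7 to 62 counts per library. The 18 tested exon bins of the main Arpc1b transcript differed by -0.27 to 0.02 on the log2 scale without LPS and by -0.41 to 0.12 with LPS.

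Intron 8 was set beside the 3 other member introns that exon bins cover from end to end, of 64 introns in the main transcripts of the 9 genes. The measure was the counts per base in the intron as a percent of the mean counts per base in the exon bins on each side. A read counts in each bin it overlaps: Arpc1b bin 8, 1 base long, held 4.32 to 5.58% of the Arpc1b counts. Counts per base thus run higher in short bins and where an intron is split into more bins. Values of different introns are not on an equal footing, while each intron is compared between groups on the same bins. For intron 8 of Arpc1b it was 2.85, 2.02 and 2.54% with control siRNA and 14.3, 16.4 and 17.6% with SF3A1 siRNA without LPS. With LPS it was 2.04 and 1.87% with control siRNA and 21.8, 18.0 and 20.2% with SF3A1 siRNA. For intron 4 of Arpc1b it was 1.68, 1.79 and 1.59% with control siRNA and 2.36, 2.61 and 2.78% with SF3A1 siRNA without LPS, and 1.31 and 1.22% against 1.98, 2.42 and 2.53% with LPS. The siRNA groups did not overlap at intron 4 either, but its means moved from 1.69 ± 0.10 to 2.58 ± 0.21% without LPS (SD, n = 3), while those of intron 8 moved from 2.47 ± 0.42 to 16.1 ± 1.7%.

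Intron 1 of Arpc2 (207 bases, chr1:74236611-74236817) is held as exon by the transcript Arpc2-201 and was well covered in control cells too. It stood at 31.6, 15.0 and 14.7% of the flanking density with control siRNA and at 44.6, 26.5 and 19.2% with SF3A1 siRNA without LPS. With LPS it stood at 31.8 and 15.6% with control siRNA and at 45.3, 28.5 and 19.9% with SF3A1 siRNA. Replicate 1 was the highest library in each group, and the siRNA groups overlapped. Within each replicate number, which pairs the samples, the SF3A1 library lay above the control library in all 3 pairs without LPS and in both pairs with LPS. Intron 7 of Arpc1a (180 bases, chr5:145104518-145104697) is the only fully covered intron of the paralogue, and Arpc1a is a much less abundant gene. It held 0 to 5 counts in the control libraries and 1 to 14 counts in the SF3A1 libraries, with 0.706 ± 0.616% and 4.45 ± 1.87% of the flanking density without LPS (SD, n = 3) and 0.908 ± 0.486% (n = 2) and 2.02 ± 1.72% (n = 3) with LPS. The siRNA groups lay apart without LPS, where the control libraries reached at most 1.13% and the SF3A1 libraries lay between 2.32 and 5.78%, and they overlapped with LPS. This depth cannot show whether the intron behaved like intron 8 of Arpc1b. Reads outside annotated genes, which include reads in introns that no annotated transcript holds, made up 17.8 to 19.8% of a control library and 18.2 to 27.2% of an SF3A1 library, and their part in these values was not tested.

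**Figure D2:**
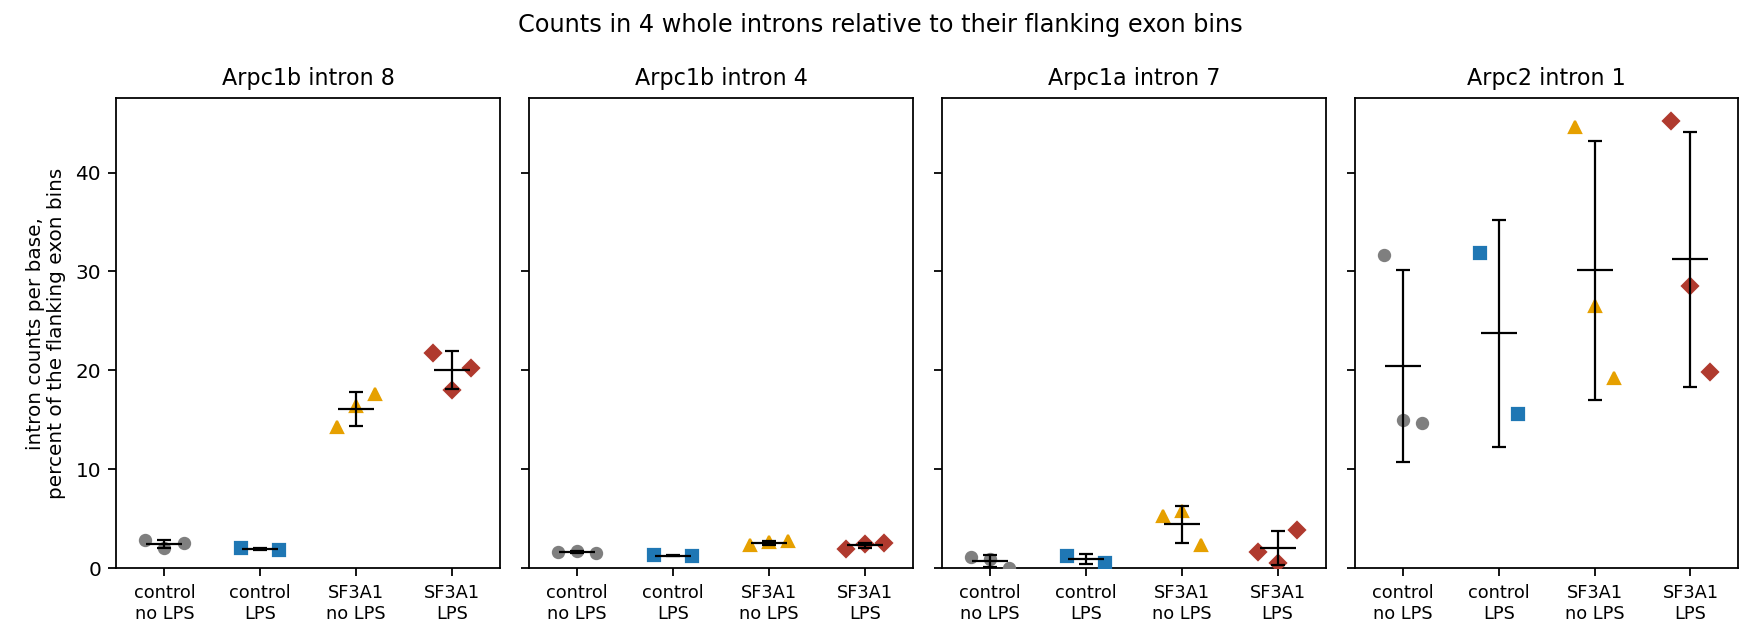
Counts per base in each fully covered intron as a percent of those in its flanking exon bins, by group; points are libraries, bars the mean ± SD (n = 3, but 2 for control siRNA with LPS). Intron 8 of Arpc1b lies between 1.87 and 2.85% in the control siRNA libraries and between 14.3 and 21.8% in the SF3A1 siRNA libraries.

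No member bin passed the test for a change in use with LPS. None of the 137 tested bins passed with control siRNA (0.0801% of all bins were called) or with SF3A1 siRNA (0.0254% were called) in edgeR's diffSpliceDGE, and none passed with limma's diffSplice. At an unadjusted p under 0.05 there were 2 and 3 bins, beside 1.97% and 1.29% of all bins. Bin 24 differed with LPS by -0.47 on the log2 scale with control siRNA and by 0.22 with SF3A1 siRNA, and bin 25 by -0.19 and 0.45. The adjusted p was 1 in each case with edgeR. The control siRNA group with LPS had 2 libraries here, while both groups of the comparison after SF3A1 siRNA had 3. In either comparison, an effect of LPS on the use of these bins may not be detectable at this depth.

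In the other 8 genes, the bin with the largest shift in use after SF3A1 siRNA, taken as the mean of the comparisons without and with LPS among bins of at least 1% use, was an exon bin of the main transcript in each of the 6 genes with placed bins. The limit on use leaves hardly any intron bins in these genes, and in Arpc2 the bin of intron 1 shifted nearly as far (0.92 and 0.76 percentage points higher without and with LPS) as the exon bin 10 (-1.002 and -0.720). Actr2 bin 2 (exon 8 of 9) held 5.47 ± 0.62% and 6.39 ± 0.32% without LPS and 5.60 ± 0.15% and 6.16 ± 0.16% with LPS, with control and SF3A1 siRNA in this order. Actr3 bin 4, which could not be placed on the annotation, moved the other way, from 10.3 ± 0.5% to 7.85 ± 0.94% without LPS and from 9.76 ± 1.17% to 7.31 ± 0.62% with LPS. In both bins the libraries of the siRNA groups did not overlap, with or without LPS. The largest shifts of Arpc1a, Arpc2, Arpc4 and Arpc5 overlapped between the siRNA groups in both comparisons, and those of Arpc3 and Arpc5l overlapped without LPS. With LPS they lay apart: Arpc5l bin 10 held 48.8 ± 2.2% and 55.2 ± 3.6%, the largest shift of the 8 genes in percentage points, and Arpc3 bin 16 held 15.3 ± 0.8% and 12.8 ± 0.5%. Of the 137 tested member bins, 18 were higher and 12 lower in every SF3A1 library with LPS, where the control group has 2 libraries. Without LPS the numbers were 9 and 4. The control siRNA libraries without LPS held 47.0 to 57.4% in Arpc5l bin 10. With LPS alone, another bin shifted more in 5 of the 8 genes (Actr2, Actr3, Arpc1a, Arpc2 and Arpc4), led by Actr3 bin 1 with 27.6 ± 1.9% and 31.1 ± 4.0%, and in all 5 of these bins the siRNA groups overlapped.

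At the gene level, Arpc1b was lower in every SF3A1 siRNA library than in any control siRNA library. It stood at 976, 1014 and 949 CPM with control siRNA and at 808, 669 and 635 CPM with SF3A1 siRNA without LPS. With LPS it stood at 1056, 1061 and 986 CPM with control siRNA and at 826, 697 and 647 CPM with SF3A1 siRNA. The highest SF3A1 library was replicate 1 with LPS, and the lowest control library was replicate 3 without LPS. The log2 fold change was -0.48 ± 0.14 (SE) without LPS and -0.52 ± 0.14 with LPS. In RNA from whole cultures, fewer cells that express a gene and less RNA per cell cannot be told apart.

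These gene counts include reads in intron 8, since the annotation holds its bases as exons. Counted over the 19 exon bins of the main transcript alone, Arpc1b stood at 1410, 1421 and 1317 CPM of the library's bin counts with control siRNA and at 1014, 816 and 801 with SF3A1 siRNA without LPS. With LPS the values were 1367 and 1354 with control siRNA and 898, 788 and 720 with SF3A1 siRNA. The exon signal was thus 63.4% of the control mean without LPS and 59.0% with LPS, beside 71.9% and 69.9% for the gene count, which has another scaling. Intron 8 itself rose from 17.5 ± 4.4 to 76.5 ± 8.7 CPM of bin counts without LPS (SD, n = 3), and stood at 13.8 ± 1.9 (n = 2) and 87.0 ± 20.6 (n = 3) with LPS.

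**Figure D3:**
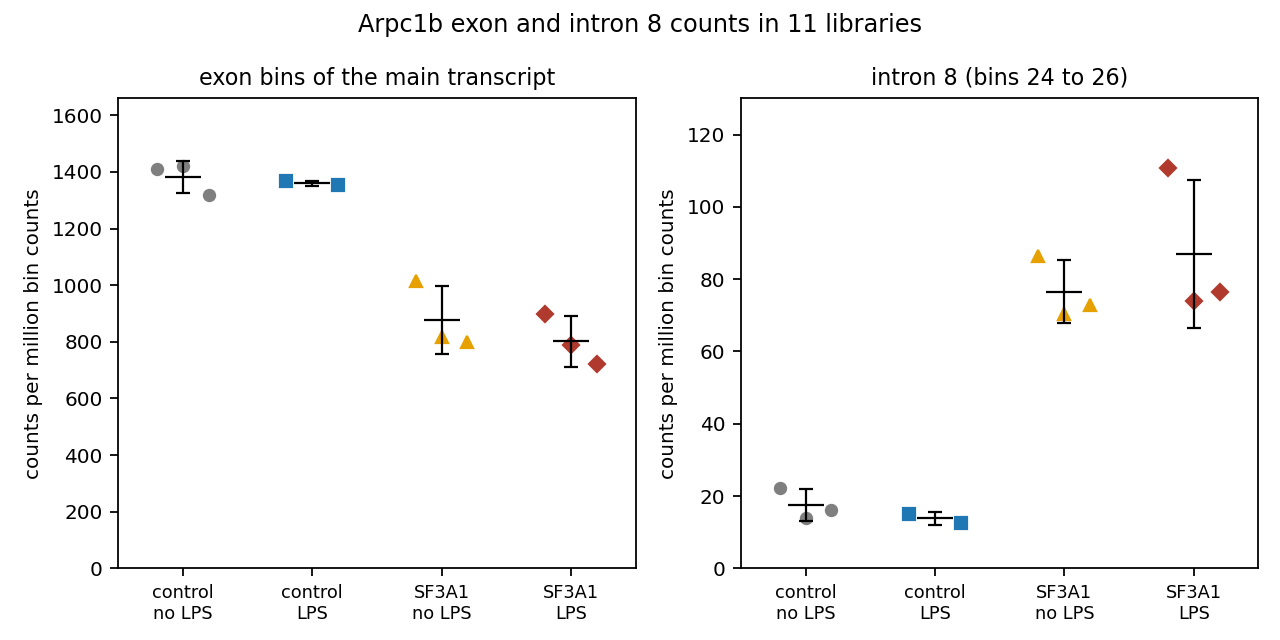
Arpc1b counts in the exon bins of the main transcript (left) and in intron 8 (right), in CPM of the bin counts of each library; points are libraries, bars the mean ± SD (n = 3, but 2 for control siRNA with LPS). The SF3A1 siRNA libraries lie below all control siRNA libraries in the exon bins and above all of them in intron 8.

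Arpc5, the subunit that ties Arp2 to the rest of the complex, went the other way. It stood at 243, 273 and 320 CPM with control siRNA and at 415, 480 and 513 CPM with SF3A1 siRNA without LPS. With LPS it stood at 358, 372 and 486 CPM and at 487, 638 and 621 CPM, so that the groups did not overlap in either comparison, although the margin with LPS was less than 1 CPM. The log2 fold change with SF3A1 siRNA was 0.75 ± 0.17 without LPS and 0.52 ± 0.17 with LPS. As a description of the genes chosen, 2 of the 9 lay past the threshold without LPS (33.8% of all 14983 genes did) and 2 with LPS (38.8%), Arpc1b lower and Arpc5 higher in both.

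The other 7 genes shifted less with SF3A1 siRNA. Arpc1a, the alternative to Arpc1b, stood at 69.3 ± 10.1 CPM with control siRNA and 59.4 ± 1.8 CPM with SF3A1 siRNA without LPS, and at 77.1 ± 3.0 and 62.5 ± 4.7 CPM with LPS (SD, n = 3). Its log2 fold changes were -0.22 ± 0.13 and -0.30 ± 0.13, so the level of Arpc1a was not higher where that of Arpc1b was lower. Arpc4 differed by 0.25 ± 0.19 and 0.42 ± 0.19 and Arpc3 by 0.24 ± 0.15 and 0.21 ± 0.15, without and with LPS. Without LPS, Arpc4 stood at 283, 379 and 385 CPM with control siRNA and at 351, 447 and 445 CPM with SF3A1 siRNA. With LPS the values were 286, 375.5 and 367 CPM and 362, 562 and 452 CPM. Within each replicate number, Arpc4 was thus higher with SF3A1 siRNA in every pair, and Arpc1a was lower in every pair. None of the others of these 7 genes kept the same direction in all pairs. Actr2, Actr3 and Arpc2 stayed between -0.24 and 0.06. The siRNA groups did not overlap with LPS for Arpc1a and for Actr2 (547 ± 46 and 464 ± 30 CPM), both lower with SF3A1 siRNA, nor without LPS for Arpc3 (261 ± 31 and 309 ± 3 CPM), which was higher. Arpc5l had the largest error, with -0.33 ± 0.39 and 0.23 ± 0.39.

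LPS raised Actr3 and Arpc5 with control siRNA. Actr3 stood at 233, 250 and 264 CPM without LPS and at 449, 366 and 447 CPM with LPS, 0.76 ± 0.13 higher on the log2 scale (adjusted p = 0.0010, edgeR's quasi-likelihood test). Arpc5 rose by 0.54 ± 0.17 on the log2 scale, from a mean of 279 ± 39 to 406 ± 70 CPM (adjusted p = 0.0323). These were 2 of the 9 genes, while 32.1% of all genes tested passed with LPS and 13.8% passed as higher. Both were higher in all 3 control siRNA libraries with LPS than in any control siRNA library without LPS. Without replicate 1 of control siRNA without LPS, or without replicate 3 of control siRNA with LPS, Arpc5 no longer passed. The median log2 fold change was 0.15 over the 9 genes and -0.02 over all genes.

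With the replicate number as a block, 5 of the 9 genes passed for LPS with control siRNA, beside 43.9% of all genes. Actr2 (0.30 ± 0.11, adjusted p = 0.0462) and Arpc3 (0.33 ± 0.14, adjusted p = 0.0793) joined as higher, and Arpc5l as lower (-0.43 ± 0.13, adjusted p = 0.0190), all from edgeR. Without the block these 3 had adjusted p of 0.120, 0.126 and 0.456. Arpc5l also passed when the 4 replicate 1 libraries were left out (-0.50 ± 0.15, adjusted p = 0.0238, edgeR). Arpc1b did not pass in either fit. It stood at 980 ± 33 CPM without LPS and 1034 ± 42 CPM with LPS, which differ by 0.08 ± 0.14 in log2 (adjusted p = 0.742, edgeR).

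After SF3A1 siRNA, LPS raised Actr3 alone among the 9 genes, beside 10.7% of all genes called and 6.6% called higher. Actr3 stood at 262, 260 and 255 CPM without LPS and at 337, 420 and 406 CPM with LPS (0.58 ± 0.13, adjusted p = 0.0176, edgeR). With the replicate block, which called 20.8% of all genes, Arpc5 passed as well (0.31 ± 0.11, adjusted p = 0.0730, edgeR). Arpc1b differed by 0.04 ± 0.14. The difference between the LPS effects of the siRNA groups, which is also the difference between the SF3A1 effects with and without LPS, passed for none of the 9 genes in edgeR, DESeq2 or the fit with the block, while 3.47% of all genes passed in edgeR and 11.7% with the block. It was -0.04 ± 0.19 for Arpc1b (adjusted p = 0.978) and largest for Arpc5l at 0.56 ± 0.55 (adjusted p = 0.809). The comparisons share libraries: each SF3A1 comparison uses the same control groups as the LPS comparison with control siRNA.

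**Figure D4:**
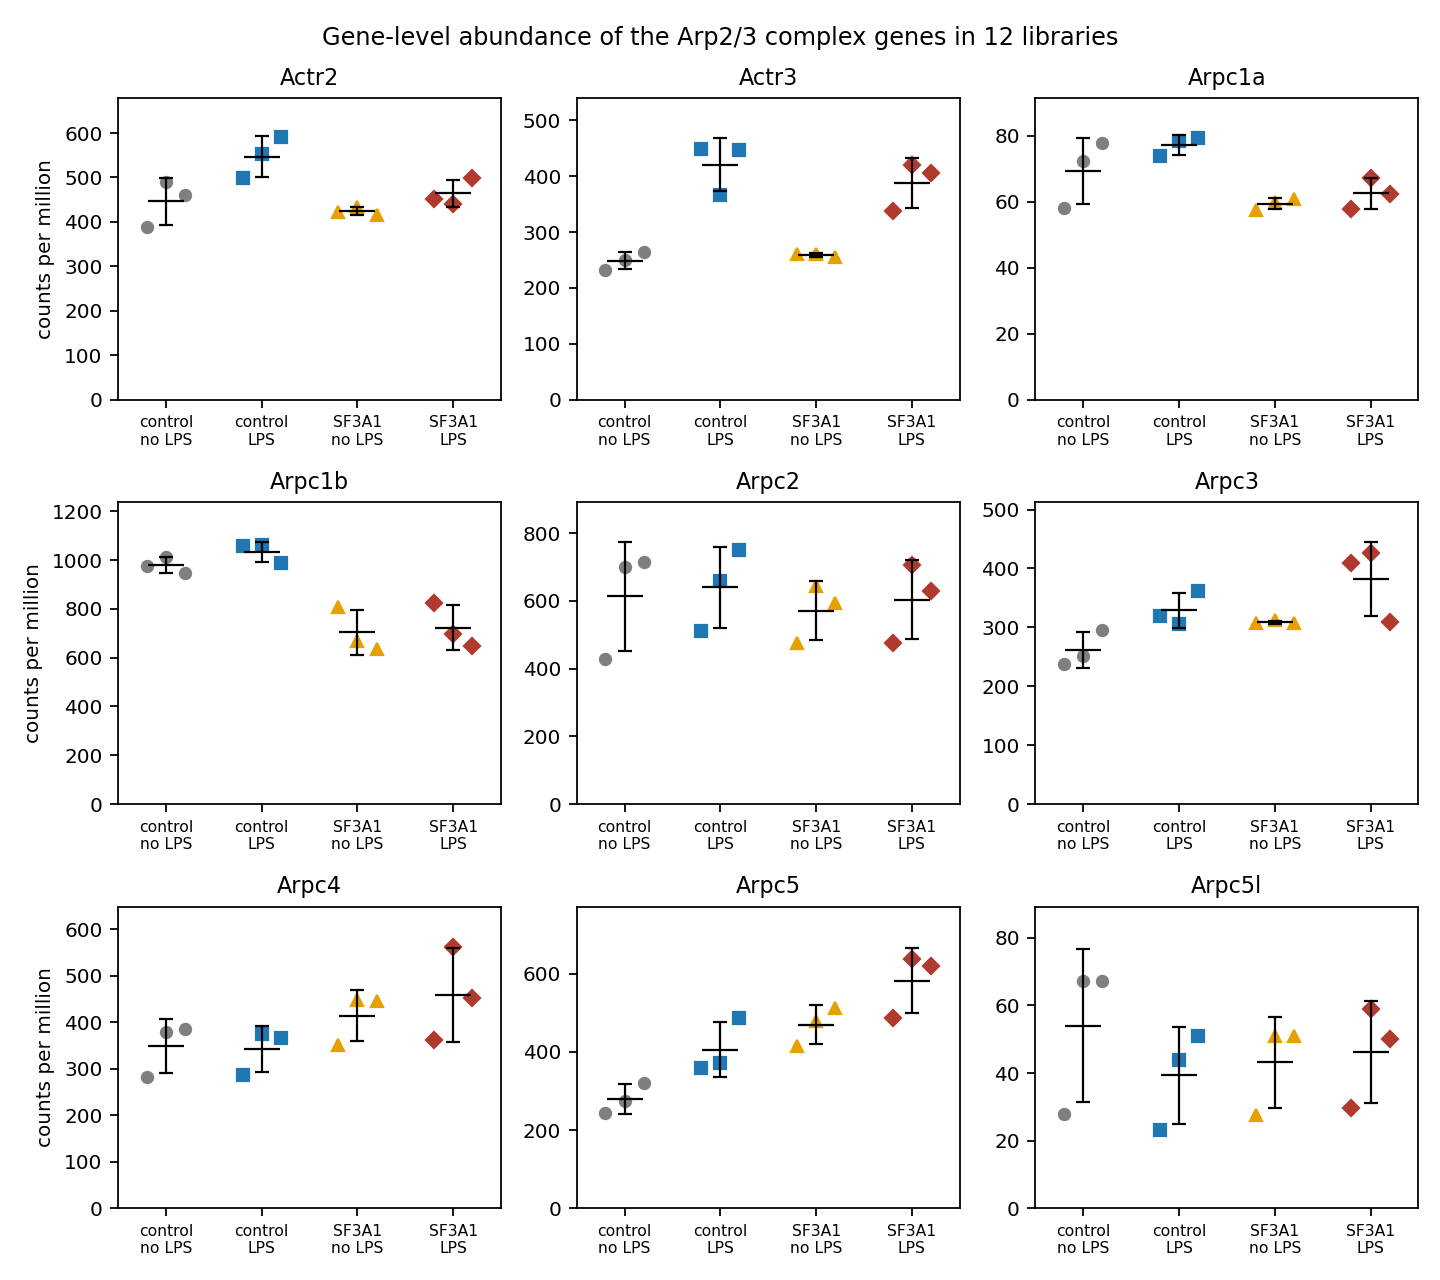
CPM of the 9 genes in each library, by group; points are libraries and bars the mean ± SD (n = 3). Arpc1b is lower and Arpc5 higher with SF3A1 siRNA, Actr3 is higher with LPS, and replicate 1 (the leftmost point of each group) is the lowest for Arpc1a, Arpc2, Arpc4, Arpc5 and Arpc5l.

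**Figure D5:**
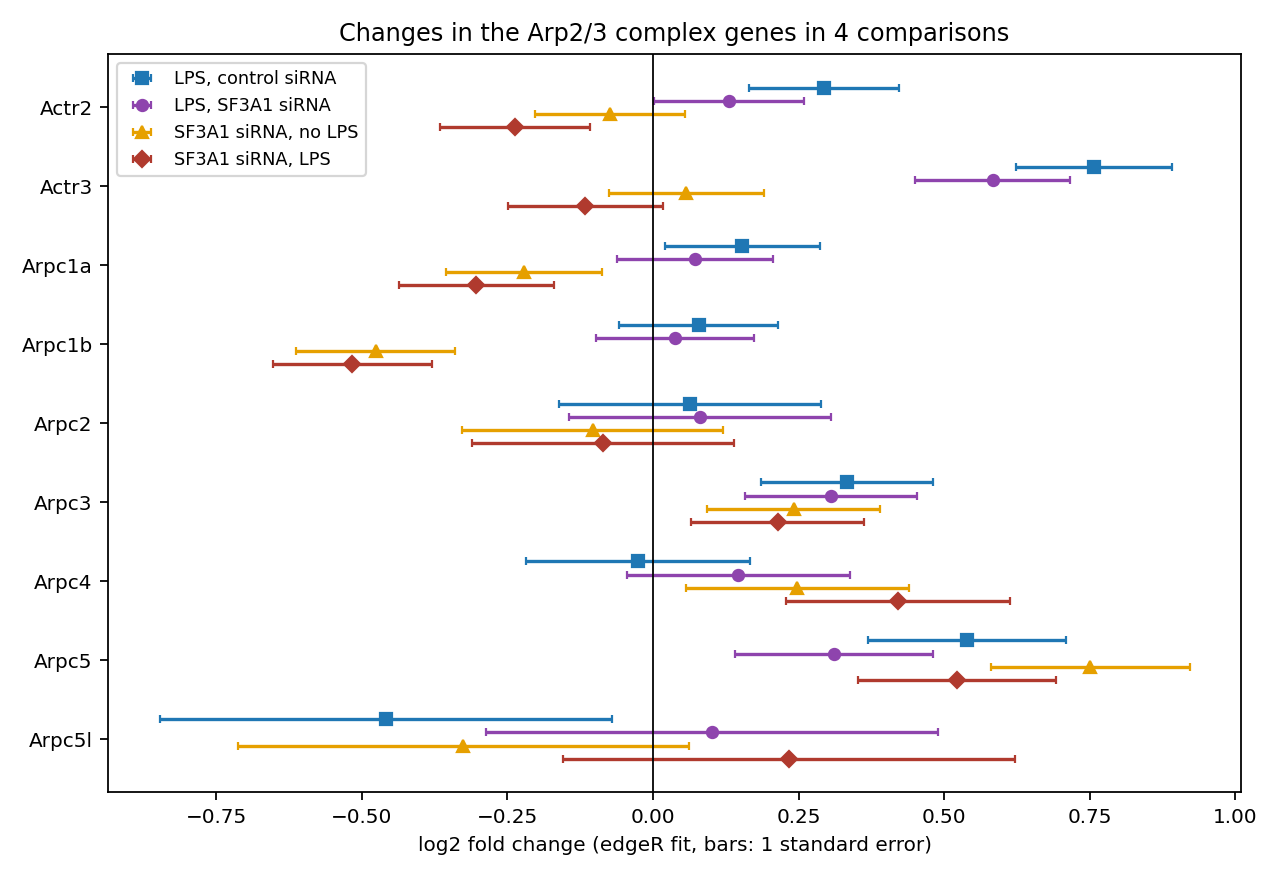
Log2 fold changes of the 9 genes in 4 comparisons (x axis), with bars of 1 SE from the edgeR fit. The SF3A1 values of Arpc1b lie near -0.5 and those of Arpc5 between 0.52 and 0.75, while the LPS values of Actr3 lie at 0.76 and 0.58.

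Per kilobase of the main transcript, the subunits differed widely in level in control cells without LPS, and the place of Arpc1b depended on the length used. Over whole transcripts, Arpc2 was highest at 426 ± 112 CPM per kilobase, followed by Arpc1b at 316 ± 10 and Arpc3 at 291 ± 34 (SD, n = 3), and these neighbours did not differ beyond their SDs. Arpc4 (154 ± 25), Arpc5 (146 ± 20) and Actr2 (123 ± 14) formed the next step, and Actr3 lay at 97.0 ± 6.1. The alternative subunits Arpc1a (42.5 ± 6.2) and Arpc5l (40.4 ± 16.9) were lowest and did not differ beyond their SDs. After SF3A1 siRNA without LPS, Arpc1b lay at 227 ± 30 CPM per kilobase, below Arpc2 (397 ± 60) and Arpc3 (344 ± 3), and did not differ beyond the SDs from Arpc5 (245 ± 26). Bin 29 of Arpc1b, 1611 bases of its last exon, held only 1.29 to 3.40% of the Arpc1b counts. Over the bins with at least 10% of the median counts per base, a choice made after seeing the data, Arpc1b stood at 643 ± 26 CPM per kilobase with control siRNA, above Arpc2 at 437 ± 117, and at 429.8 ± 59.8 with SF3A1 siRNA, where Arpc2 lay at 402 ± 64. Arpc5l rose to 69.6 ± 29.1 on that scale, while Actr2, Arpc1a, Arpc2, Arpc3 and Arpc5 moved by less than their SDs, and Actr3 and Arpc4 have no placed bins. The coding sequences of Arpc1a and Arpc1b share 74.2% of aligned bases, those of Arpc5 and Arpc5l 72.4%, and those of Actr2 and Actr3 59.3%, and only uniquely mapped reads were counted.

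The genes most like Arpc1b across the 12 libraries, by Pearson's r of log2 CPM, were Map2k2 (0.983), which encodes the MAP kinase kinase MEK2, Cops7a (0.981), a subunit of the COP9 signalosome, Ifrd2 (0.975), and Mvb12a (0.975), a subunit of the ESCRT-I complex. The 12 points share the siRNA and LPS groups. With the group means taken out, r was 0.964 for Map2k2, 0.887 for Cops7a, 0.889 for Ifrd2 and 0.839 for Mvb12a. Map2k2 stood at a mean of 204 and 141 CPM with control and SF3A1 siRNA without LPS, and Mvb12a at 73.7 and 28.4 CPM.

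Genes that act on the complex were followed through lists of 60 regulators, of which 54 could be tested. They are the nucleation-promoting factors that switch the complex on, the WIP family that binds and stabilises WASP (1 of 2 tested rose with SF3A1 siRNA, without and with LPS), the WAVE and WASH assemblies that carry some of them, the small GTPases and adaptors that act before these, the inhibitors and branch-removing proteins, and actin itself with its filament turnover factors. With SF3A1 siRNA without LPS, 10 rose and 5 fell, 27.8% of those tested beside 33.8% of all genes. The balance depended on the scaling, with 12 higher and 2 lower under RLE scaling and 14 and 3 with DESeq2. With LPS, 17 rose and 16 fell, 61.1% beside 38.8%. With the replicate block 26 passed without LPS (17 higher and 9 lower) and 38 with LPS, while 47.1% and 50.9% of all genes did. The median log2 fold change of the 54 genes was 0.16 and 0.14, beside -0.02 and -0.04 over all genes.

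Among proteins that restrain the complex or remove its branches, Arpin rose and 3 coronins fell with SF3A1 siRNA. Arpin, which binds the complex and keeps it inactive, stood at 26.9 ± 3.4 and 45.4 ± 2.6 CPM without LPS and at 18.3 ± 1.8 and 44.3 ± 2.6 CPM with LPS (log2 0.75 ± 0.14, adjusted p = 0.0018, and 1.28 ± 0.14, adjusted p = 6.47e-05, edgeR). Coro1a, the coronin of blood cells, fell from 955 ± 35 to 580 ± 34 CPM without LPS and from 1195 ± 87 to 556 ± 26 CPM with LPS (log2 -0.72 ± 0.12 and -1.10 ± 0.12). Coro1b, which replaces the complex at branches, fell by 1.10 and 1.50 on the log2 scale. Coro7 fell by 0.67 without LPS (adjusted p = 0.0700, edgeR), a call lost under 6 of the 17 other settings. Coro1c moved against its relatives, with 177 ± 55 and 391.5 ± 58.4 CPM with LPS (log2 1.14 ± 0.20, adjusted p = 0.0012, edgeR). In all, 1 of the 8 genes of this list rose and 3 fell without LPS, and 2 rose and 4 fell with LPS. The background was 13.7% of all genes called higher and 20.1% called lower in unstimulated cells, and 18.4% and 20.4% in stimulated cells.

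Of the activators, Jmy, a factor that can both activate the complex and nucleate actin by itself, rose from 21.1 ± 1.3 to 36.6 ± 2.1 CPM with SF3A1 siRNA without LPS and stood at 9.19 ± 1.75 and 31.1 ± 7.5 CPM with LPS (log2 0.80 ± 0.19 and 1.76 ± 0.20). Was, the WASP of blood cells, fell by 0.54 without LPS (adjusted p = 0.0811, edgeR), a call lost under 7 of the 17 other settings, DESeq2 among them. With LPS, Hcls1, the cortactin relative of blood cells that binds the complex, fell from 955 ± 67 to 499.6 ± 87.9 CPM, and Whamm, a factor that acts on internal membranes, from 44.3 ± 0.8 to 22.3 ± 4.0 CPM. In the WAVE regulatory complex, Nckap1l, its blood cell subunit HEM1, rose from 288 ± 17 to 534 ± 11 CPM without LPS (log2 0.89 ± 0.15, adjusted p = 0.0010, edgeR). In LPS-treated cells, Washc4 of the WASH complex was lower by 1.05 ± 0.19 on the log2 scale with SF3A1 siRNA than with control siRNA.

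Of the 9 upstream GTPases and adaptors tested, 3 rose with SF3A1 siRNA without LPS and 7 with LPS, and none fell, beside 13.7% and 18.4% of all genes called higher. The share called without LPS, 33.3%, was near the 33.8% of all genes. Baiap2 (IRSp53), which joins Rac and Cdc42 to WAVE at curved membrane, stood at 43.0 ± 2.3 and 112 ± 25 CPM without LPS and at 29.8 ± 2.2 and 80.3 ± 22.1 CPM with LPS (log2 1.38 ± 0.21 and 1.43 ± 0.21). Trip10 (CIP4), a Cdc42 effector that bends membrane, rose by 1.08 ± 0.23 without LPS (adjusted p = 0.0041, edgeR). Among the actin and filament turnover genes, Gsn (gelsolin, which severs and caps filaments) rose from 546 ± 136 to 1004 ± 209 CPM without LPS and stood at 369 ± 17 and 832 ± 93 CPM with LPS. Evl, a filament-elongating protein of the Ena/VASP family, stood at 82.9 ± 55.2 CPM with control siRNA and LPS and at 15.0 ± 10.7 CPM with SF3A1 siRNA and LPS (log2 -2.46 ± 0.50, adjusted p = 0.0027, edgeR). Vasp fell by 0.31 without LPS (adjusted p = 0.0795, edgeR), a call lost under 9 of the 17 other settings, DESeq2 among them.

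LPS also moved genes of these lists with control siRNA, with 16 of the 54 genes higher and 9 lower, 46.3% beside 32.1% of all genes. Neither of the 2 tested WIP family genes passed. With the replicate block 27 of the 54 passed (18 higher and 9 lower), beside 43.9% of all genes. Of the 16 tested actin and filament turnover genes, 7 were higher and 1 was lower, beside 13.8% of all genes called higher and 18.3% called lower. Actg1 (gamma actin) rose from 79.7 ± 5.9 to 245 ± 49 CPM (log2 1.62 ± 0.18, adjusted p = 2.97e-05, edgeR), and Vasp from 676 ± 22 to 1555 ± 35 CPM (1.20 ± 0.12). Hcls1 rose by 1.56 ± 0.15 and Whamm by 1.24 ± 0.15 (adjusted p = 7.03e-06 and 5.58e-05, edgeR). Evl rose by 2.71 ± 0.50 with wide spread between the LPS libraries (147, 47.9 and 54.4 CPM), and Diaph2, a formin, by 1.04 ± 0.22. Abi3, a subunit of the WAVE complex, fell by 1.54 ± 0.19, Jmy by 1.20 ± 0.20, Coro1c by 0.81 ± 0.20, Arpin by 0.56 ± 0.14 and Washc2 by 0.56 ± 0.17. Gsn fell by 0.57 ± 0.19 (adjusted p = 0.0484, edgeR) and no longer passed without replicate 1 of control siRNA without LPS, without replicate 2 or 3 of control siRNA with LPS, or without all replicate 1 libraries.

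After SF3A1 siRNA, LPS raised 8 of the 54 genes and lowered 1, 16.7% beside 10.7% of all genes, and 16 passed with the replicate block, beside 20.8%. Actg1 rose from 89.7 ± 18.1 to 184 ± 22 CPM (log2 1.04 ± 0.18), Hcls1 by 0.78 ± 0.15, Vasp by 0.69 ± 0.12 and Rhog, a Rac-related GTPase, by 0.64 ± 0.14 (adjusted p = 0.0030, 0.0048, 0.0029 and 0.0159, edgeR). Actb (0.52 ± 0.17), Nckap1l (0.48 ± 0.15) and Cap1 (-0.44 ± 0.14) passed at adjusted p of 0.0861, 0.0779 and 0.0891 with edgeR, and these calls were lost under 11, 9 and 10 of the 17 other settings.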

How the data were processed

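Poly(A) RNA from 12 cultures was sequenced on the Ion Proton. The authors mapped reads of at least 30 bases to mm10 with GSNAP and kept unique alignments. The deposited counts per gene were made by the authors with htseq-count (HTSeq 0.5.4p3) and the deposited counts per exon bin with DEXSeq's script. Both used Ensembl gene models, and both are raw counts. Reads without a gene, 17.8 to 27.2% of each library, and the other summary counts were left out.

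Gene counts were fitted with edgeR 4.0.16 (quasi-likelihood, TMM, filterByExpr, R 4.3.3), with 1 mean per group over 12 libraries, and bins with diffSpliceDGE over 11 libraries in genes with at least 2 kept bins. The Benjamini-Hochberg threshold was 0.1. CPM use TMM library sizes. Bin use is the bin's percent of its gene's bin counts. Alternatives used DESeq2 1.42.0, limma 3.58.1, RLE scaling, other filters, the replicate block, and single libraries or the replicate 1 libraries left out, the last chosen after seeing the data. Summaries and plots used Python 3.11.15, pandas 2.3.3, numpy 2.4.6, Biopython 1.88 and matplotlib 3.10.9. The steps were tested on simulated data, where the bin test missed most of the smaller changes and made more false calls than its threshold of 0.1 allows.

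Bin coordinates were rebuilt from GENCODE vM21 (mm10) without transcripts newer than the study's annotation, and the number of bins matched in 31209 of 34660 genes. It did not match for Actr3 and Arpc4, whose bins have no coordinates here. Of the gene IDs, 36345 of 38215 matched a symbol. Library pairs of different groups with the same replicate number deviated together from their group means (r between 0.143 and 0.600 in all 18 pairs, -0.523 to 0.345 in 36 other pairs), so the numbers pair the samples. Replicates differed by more than sampling noise (chi-squared per degree of freedom 8.85 to 118 in 12 pairs). P-values measure the spread between these cultures. The members and lists were chosen with earlier results of these data known. Named were the members, Sf3a1, up to 6 called regulators per direction and comparison with the largest log2 fold change, and the 5 genes with the highest Pearson's r with Arpc1b, of which 1 is not reported here. Bins named were Arpc1b 23 to 27, called member bins, the member bins covering a whole intron, and in each other gene the bin of at least 1% use with the largest shift.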

Additional observations from a re-analysis of the deposited data

Results flagged for a closer look

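The effect of SF3A1 siRNA differed between cells without and with LPS in 4 of the 54 regulators tested, beside 3.47% of all genes, while none of the 9 Arp2/3 genes passed this test. Abi3, a subunit of the WAVE complex, differed by 1.27 ± 0.26 on the log2 scale (adjusted p = 0.0268, edgeR's quasi-likelihood test). It stood at 22.7 ± 2.6 and 25.6 ± 5.1 CPM with control and SF3A1 siRNA without LPS, and at 7.81 ± 0.90 and 21.3 ± 2.1 CPM with LPS (SD, n = 3). Washc4 differed by -1.04 ± 0.27 (adjusted p = 0.0706), with 73.8 ± 4.8 and 73.4 ± 4.8 CPM without LPS and 138 ± 9 and 66.7 ± 19.5 CPM with LPS. Hcls1 differed by -0.77 ± 0.21 (adjusted p = 0.0827) and Whamm by -0.76 ± 0.21 (adjusted p = 0.0987), both from edgeR. Abi3 passed under all 17 other settings run (adjusted p between 0.0022 and 0.0818), Washc4 under 10, Hcls1 under 6 and Whamm under 5. With the replicate block, 9 of the 54 regulators passed, beside 11.7% of all genes.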

How the results depend on the processing

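No setting reversed a called value. The calls of Actr3 with LPS held under every setting run in both siRNA groups, and no member bin was called for LPS under any setting run. With the replicate block, genes called for LPS after SF3A1 siRNA went from 1598 to 3115 and for the interaction from 520 to 1756, and bins from 123 to 285 (LPS, control siRNA), 39 to 105 (LPS, SF3A1 siRNA), 961 to 2113 and 756 to 1793 (SF3A1 siRNA without and with LPS) and 0 to 2 (interaction). The members called with the block were 5 for LPS with control siRNA and 2 after SF3A1 siRNA, and the regulators 16 for LPS after SF3A1 siRNA, 26 for SF3A1 siRNA without LPS and 9 for the interaction. Interaction genes numbered 930 without the low-count filter, 921 with DESeq2 and 1012 without the replicate 1 libraries. Members called for LPS with control siRNA were 4 with RLE scaling and 4 with DESeq2 (Actr2 and Arpc3 added), beside 31.5% of 14983 and 17.4% of 28638 genes, the latter including genes too low for the edgeR filter, and limma called 21 bins for LPS after SF3A1 siRNA and 1 for the interaction. As CPM of library bin counts, Arpc1b bins 24 and 25 rose 5.23 and 8.01 times without and with LPS. As a share of Arpc1b bin counts, bins 24 to 26 together rose 9.65 times with LPS.

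Leaving out single libraries gave 1050 to 2005 genes for LPS after SF3A1 siRNA and 273 to 711 for the interaction. Bins ranged over 49 to 158 and 26 to 42 for LPS with control and SF3A1 siRNA, 527 to 1131 and 101 to 888 for SF3A1 siRNA without and with LPS, and 0 to 3 for the interaction. The 101 came without replicate 1 of control siRNA with LPS, which left that group a single library, assumed to vary like the others. Members called for LPS with control siRNA ranged over 1 to 3. Arpc1b bins 24 and 25 rose 6.60 to 9.05 times without LPS and 11.1 to 13.3 times with LPS. Some uncalled values changed sign when single libraries were left out. For LPS after SF3A1 siRNA they ran from -0.070 to 0.15 (Arpc1b), -0.048 to 0.22 (Arpc2), -0.026 to 0.29 (Arpc4) and -0.14 to 0.34 (Arpc5l). For LPS with control siRNA they ran from -0.12 to 0.20 (Arpc2) and -0.13 to 0.089 (Arpc4). The Arpc1b interaction ran from -0.15 to 0.070. SF3A1 siRNA effects without LPS ran from -0.078 to 0.079 (Actr2) and -0.21 to 0.11 (Arpc2). Those with LPS ran from -0.22 to 0.060 (Arpc2) and -0.039 to 0.48 (Arpc5l). The uses of Arpc1b bins 25 and 30 with LPS and control siRNA ran from -0.84 to 0.17 and from -0.13 to 1.27. Arpc4 with LPS and control siRNA was 0.0063 with RLE scaling and 0.0058 with DESeq2, and Arpc2 was -0.0024 without the replicate 1 libraries. The causes were not tested. The block changed no other call of a member gene for LPS or for the interaction. Depth limits single bins: Arpc1b bin 30 and Arpc1a intron 7 rest on at most 62 and 14 counts per library.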
